A study of Mus musculus with 8 samples.

Results

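The protein components of the cytosolic ribosome were examined in microglia, the macrophages that live in the brain, from mice lacking multifunctional protein-2 (MFP2) and from control mice. A gene was included when a probe set of the array named it alone and its symbol began with Rpl or Rps and a digit, or was Rplp0, Rplp1, Rplp2 or Rpsa. Symbols with -ps, which mark pseudogenes, and the Rps6k kinases were left out, and a gene with several probe sets was represented by the brightest. The rule gave 63 of the 19938 genes measured: 21 of the small subunit, 30 of the large subunit, the 3 stalk proteins, 7 paralogs and 2 genes of neither subunit. Of the latter, Rps19bp1 encodes a protein that binds Rps19, and Rps23rg1 is a retrogene of Rps23 whose product is a membrane protein. A further 20 symbols of this kind, Rpl3, Rpl11, Rps16 and Rps27 among them, were named only on probe sets shared with other genes and were not analysed here.

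All mice were Swiss Webster, labelled female and 17 weeks of age. The 4 knockout samples are labelled MFP2 knockout and the 4 control samples wild type. The labels do not say in which cells the gene is lost or whether each sample came from a separate animal, and every p-value below rests on the spread among these arrays, which may be technical. Microglia were sorted from brain cell suspensions as CD11b high and CD45 intermediate, and 1 array was made per sample from 5.775 ng of amplified RNA. The product of Hsd17b4, MFP2 catalyses steps by which peroxisomes break down very long-chain and branched fatty acids.

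A ribosome joins a small subunit, which reads the messenger RNA, to a large subunit, which forms the peptide bonds, and each holds ribosomal RNA and many small basic proteins. Cells make these proteins in near-equal amounts. Their messages carry a run of pyrimidines at the 5′ end, the terminal oligopyrimidine tract, through which the growth-controlling kinase complex mTORC1 sets how strongly they are translated.

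Start-site sequences are shown because this tract is the feature the genes are best known to share, and the first 5 were picked as clear examples of it from both subunits. Each line runs 5′ to 3′ from 50 bases before to 20 bases after the RefSeq start (GRCm38.p6), and the capitals mark the longest run of C and T within 20 bases of the start. These 5 genes rose in the knockout, and Rpl7l1, a paralog of Rpl7, did not pass the test.
Rps6 (chr4:86857348-86857417, minus strand): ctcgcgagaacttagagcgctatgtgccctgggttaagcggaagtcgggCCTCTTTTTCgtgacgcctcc
Rps18 (chr17:33955646-33955715, minus strand): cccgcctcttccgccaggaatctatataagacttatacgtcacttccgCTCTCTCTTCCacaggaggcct
Rps10 (chr17:27635225-27635294, minus strand): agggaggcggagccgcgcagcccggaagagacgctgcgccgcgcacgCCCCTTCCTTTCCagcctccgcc
Rpl28 (chr7:4792915-4792984, plus strand): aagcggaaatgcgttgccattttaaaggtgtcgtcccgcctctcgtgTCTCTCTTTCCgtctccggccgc
Rpl38 (chr11:114668530-114668599, plus strand): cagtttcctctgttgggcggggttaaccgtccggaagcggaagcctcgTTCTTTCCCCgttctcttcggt
Rpl7l1 (chr17:46782637-46782706, minus strand): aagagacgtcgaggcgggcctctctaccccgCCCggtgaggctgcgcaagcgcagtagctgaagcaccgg
The run was 10 bases long at Rps6, 11 at Rps18, 13 at Rps10, 11 at Rpl28 and 10 at Rpl38, and 3 at Rpl7l1. The length did not separate genes that rose from the others: the run was also 3 bases at Rpl10 and Rpl24, which rose, and 10 at Rplp2, which did not pass the test. Promoter entries were matched for 51 of the 63 genes. A run of at least 8 pyrimidines on the gene's own strand lay within 20 bases of a RefSeq start in 21 of these (41.2%), against 18.5% of the 15614 measured genes with an entry. The motif CCGGAAG, the core of sites bound by ETS-family factors, was found on either strand of the window from 250 bases before to 50 after the start in 19 of the 51 (37.3%) against 13.6% of all genes. It is present in the stretches of Rps10 and Rpl38 printed above. It was as common at mitochondrial ribosomal protein genes (36.8%), whose pyrimidine runs were as common as those of all genes (17.6%). The Myc-type E-box CACGTG, the same on both strands, was found at 9.80% of the members and 9.50% of all genes. No match says only that these letters are not in the window, and RefSeq starts need not be the starts used in microglia.

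The median log2 value of an array over all probe sets lay between 6.03 and 6.15, and correlations over all genes were 0.990 to 0.993 within controls, 0.988 to 0.992 within knockouts and 0.973 to 0.990 between the groups. Hsd17b4 was at 7.82 to 9.09 in controls and 4.76 to 7.20 in knockouts (log2 change -2.88, adjusted p = 0.00158 by limma), with knockout 2 the highest knockout array. Control 1 goes against its female label: Xist, which is expressed in females, was at 6.80 against at least 10.82 in the other controls, and the Y-linked Eif2s3y was at 8.14 against at most 2.99. Of the listed microglial markers 9 were measured, and 8 were lower and 0 higher in the knockout by limma (0 higher also at an unadjusted p under 0.05). By the same test 4.17% of all genes were lower and 5.38% higher. Cx3cr1 was among the lower markers, at 12.22 to 12.35 in knockouts against 12.72 to 12.83 in controls. In sorted bulk RNA, more transcript per cell and more cells with a high level cannot be told apart, and a shift shared by all genes is removed by the normalization.

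Ribosomal protein genes rose together in knockout microglia. Of the 63, 50 were higher and 0 lower at an adjusted p under 0.05 (limma, Benjamini-Hochberg over all 19938 genes), while 9.55% of all genes were called, 5.38% higher and 4.17% lower. At an unadjusted p under 0.05 the counts were 55 higher and 0 lower, against 2063 higher and 2133 lower of all 19938 genes. Every count at an unadjusted p given here is to be read beside these all-gene counts. The median log2 change of the 63 genes was 0.66, a fold of 1.58, against -0.02 for all genes. Every knockout array lay above every control array for 52 of the 63 genes, against 7.09% of all genes, and below every control array for 0, against 6.92%. Without control 1 the counts were 49 higher and 0 lower with a median of 0.64. Control 3 had the highest control mean over the 63 genes and knockout 2 the lowest knockout mean, and without both the counts were 49 and 0 with a median of 0.77. These 2 arrays were picked by the members' own values, so leaving them out was bound to widen the gap between the group means. Leaving out control 1, control 3 and knockout 2 together, an alternative added after the data were seen, gave 45 higher and 0 lower.

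**Figure D1:**
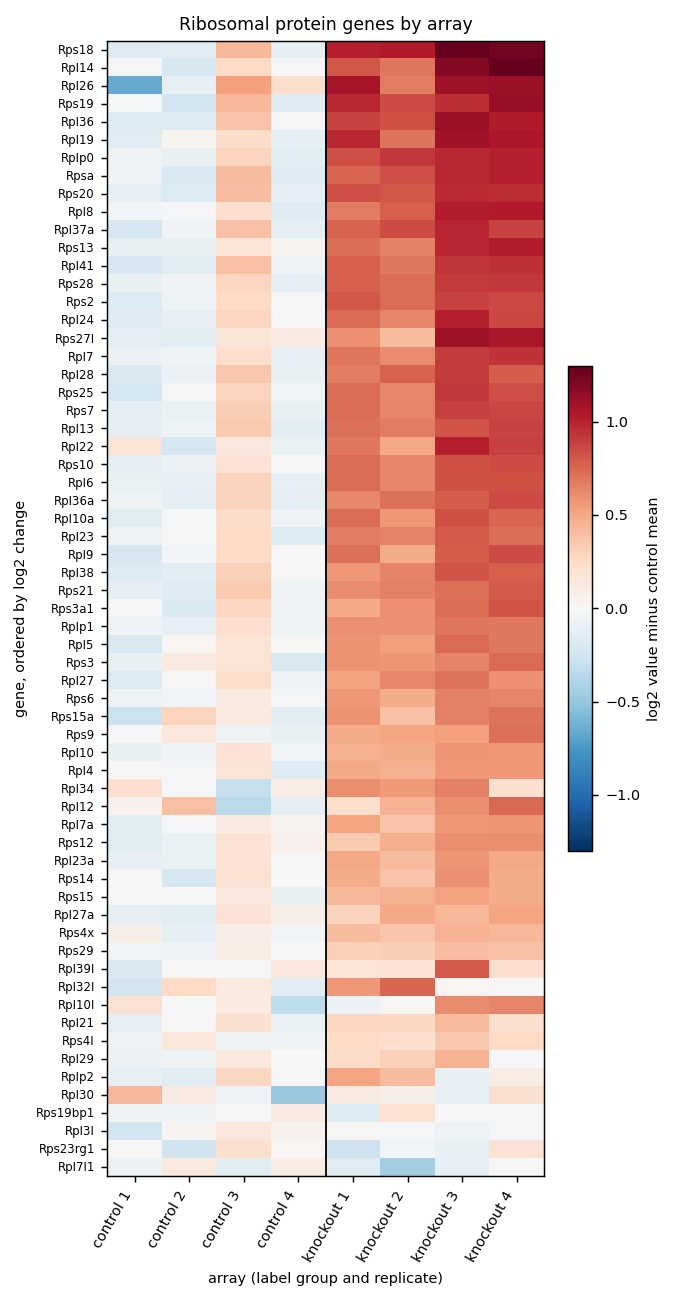
Log2 value of each ribosomal protein gene (rows, ordered by change) in each of the 8 arrays (columns) minus the gene's control mean, blue below and red above it. The knockout columns are red over most rows, control 3 is pale red over most rows, and the bottom rows, from Rplp2 to Rpl7l1, show no separation of the groups.

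All 21 measured genes of the small subunit were higher, with changes from 0.35 for Rps29 to 1.15 for Rps18 and a median of 0.70. Rps18 belongs to the head of the subunit, where it touches the large subunit. In the order of the replicate numbers, as for all genes below, the controls had log2 values of 10.72, 10.75, 11.32 and 10.77 and the knockouts 11.90, 11.92, 12.19 and 12.14. Control 3 was the highest control, yet below the lowest knockout array, and the change of 1.15 ± 0.14 (SE) corresponds to a 2.22-fold higher level (adjusted p = 0.000433). Rps19, the gene most often mutated in Diamond-Blackfan anaemia, was at 8.76, 8.52, 9.20 and 8.61 in controls and 9.75, 9.62, 9.73 and 9.91 in knockouts. The groups did not overlap, and the change was 0.98 ± 0.14 (adjusted p = 0.000896).

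Rps6, the substrate through which the S6 kinases downstream of mTORC1 are usually followed, rose less but with little spread. Its values were 11.20, 11.23, 11.38 and 11.25 in controls and 11.83, 11.75, 11.92 and 11.90 in knockouts, a change of 0.58 ± 0.08 (adjusted p = 0.00108), and the groups stood apart. Rps20, a protein of the head, rose from 11.48 ± 0.27 (SD, n = 4) to 12.38 ± 0.08, and Rps28, at the exit of the messenger RNA channel, from 11.83 ± 0.19 to 12.66 ± 0.09. Rps13, which joins the subunit early in its assembly, rose from 10.95 ± 0.13 to 11.80 ± 0.18. In these 3 genes too every knockout value exceeded every control value. Rps2, near the messenger RNA entry (0.82), Rps7, which can bind Mdm2 (0.78), and Rps10 (0.76) completed the small-subunit genes among the 20 with the lowest adjusted p, which ranged from 0.000375 to 0.00111.

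The 12 other small-subunit genes rose by 0.35 to 0.90, with a median of 0.57. Rpsa, whose protein also serves as a laminin receptor at the cell surface, was at 11.10, 10.96, 11.56 and 10.98 in controls and 11.91, 11.99, 12.13 and 12.17 in knockouts (change 0.90 ± 0.13, adjusted p = 0.00113). Rps25, Rps21, Rps3a1, Rps3, Rps15a, Rps9, Rps12, Rps14 and Rps15 lay between 0.78 and 0.47. Rps4x, the X-linked small-subunit gene, rose by 0.41 ± 0.08, with controls at 11.45 to 11.66 and knockouts at 11.95 to 12.04. Its call was lost after quantile normalization (0.22, adjusted p = 0.129). Rps29 had the lowest change of the subunit, with controls at 13.10 to 13.24 and knockouts at 13.46 to 13.56, and missed the threshold when knockout 3 was left out.

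**Figure D2:**
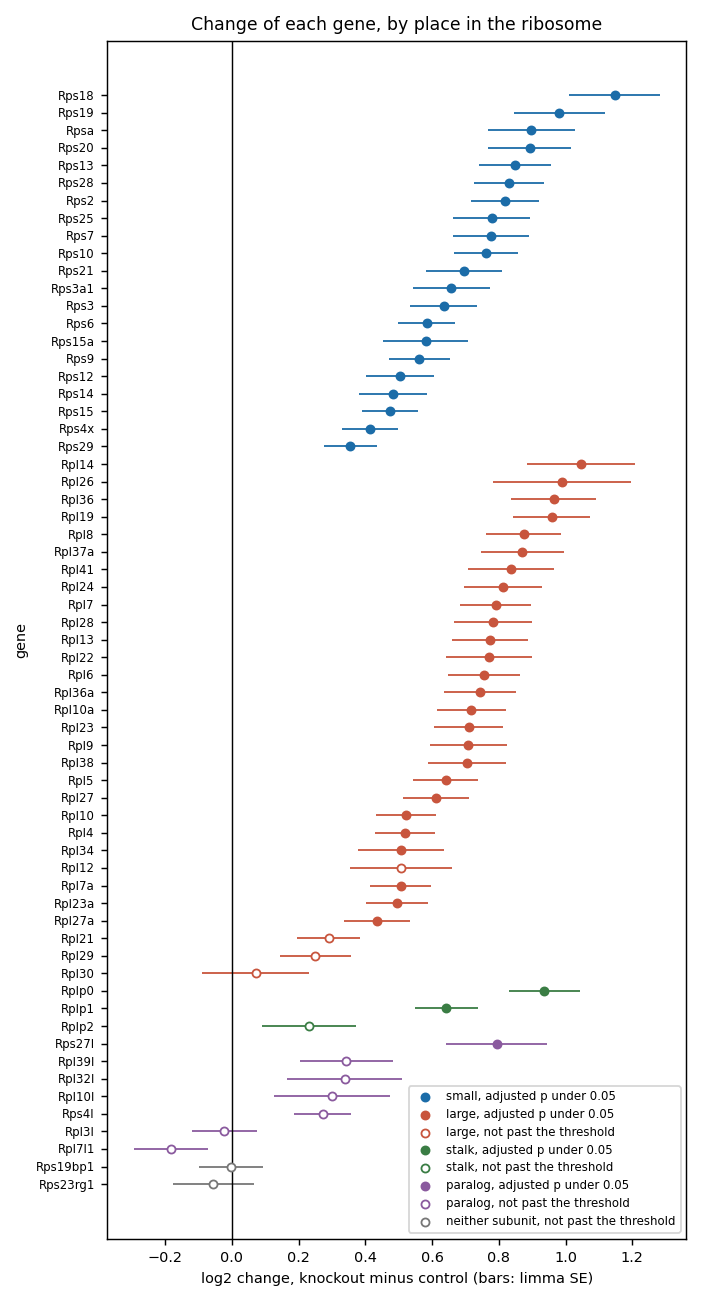
Log2 change (knockout minus control) of each gene with its limma standard error, grouped by place in the ribosome, with filled points for genes at an adjusted p under 0.05 and open points for the others. All 21 small-subunit genes are filled, 26 of 30 large-subunit genes are, and of the 7 paralogs only Rps27l is.

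Of the 30 large-subunit genes, 26 were higher and 0 lower, also 0 lower at an unadjusted p under 0.05, and the median change was 0.71. Rpl19, which forms a bridge to the small subunit, was at 10.82, 11.01, 11.21 and 10.86 in controls and 11.95, 11.69, 12.07 and 12.03 in knockouts. The lowest knockout array, knockout 2, was above the highest control, and the change was 0.96 ± 0.11 (adjusted p = 0.000441). Rpl8, close to the site of peptide bond formation, was at 10.53, 10.56, 10.79 and 10.41 in controls and 11.24, 11.35, 11.59 and 11.60 in knockouts (0.87 ± 0.11, adjusted p = 0.000616). Knockout 3 and knockout 4 were higher than knockout 1 and knockout 2. Rpl36 rose from 11.20 ± 0.26 (SD, n = 4) to 12.16 ± 0.13, and Rpl24, another bridge protein, from 10.72 ± 0.20 to 11.53 ± 0.16.

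Rpl7 rose by 0.79 ± 0.11 (SE), from controls at 10.68, 10.71, 10.97 and 10.65 to knockouts at 11.45, 11.37, 11.66 and 11.69. Rpl23, which binds the assembly factor Eif6 as well as Mdm2, rose by 0.71, and Rpl10a, which forms the mobile L1 stalk near the tRNA exit, by 0.72. Rpl37a (0.87), Rpl6 (0.75) and Rpl36a (0.74) were the remaining large-subunit genes among the 20 with the lowest adjusted p. For each of these genes the groups stood apart. Rpl5, which carries the smallest ribosomal RNA of the subunit into it and restrains Mdm2 when free, was at 10.66, 10.88, 11.04 and 10.86 in controls and 11.45, 11.41, 11.60 and 11.55 in knockouts, a change of 0.64 ± 0.10 (adjusted p = 0.00152). Rpl10, among the last proteins to join the subunit, rose by 0.52, from 11.91 ± 0.13 (SD) to 12.43 ± 0.06.

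Rpl14 had the highest change of the large subunit, 1.05 ± 0.16 (SE), and Rpl26, which also binds the p53 message, followed with 0.99 ± 0.21. Rpl26 was at 9.74, 10.28, 10.92 and 10.61 in controls and 11.46, 11.05, 11.49 and 11.51 in knockouts. Its controls spread more widely than those of any other of the 63 genes, and control 3 came close to knockout 2 without reaching it. Rpl41, Rpl28, Rpl13, Rpl22, Rpl9, Rpl38, Rpl27, Rpl4, Rpl34, Rpl7a, Rpl23a and Rpl27a rose by 0.84 to 0.44. Rpl34 was the only called gene whose groups overlapped, with controls at 6.25 to 6.76 and knockouts at 6.76 to 7.20, and its call was lost without control 2, control 3, knockout 1, knockout 2 or knockout 3. The call of Rpl27a was lost after quantile normalization and without control 1.

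The 4 large-subunit genes that did not pass the test were Rpl12, Rpl21, Rpl29 and Rpl30. Rpl12, at the base of the stalk, was at 6.48, 6.82, 6.08 and 6.31 in controls and 6.65, 6.87, 7.03 and 7.17 in knockouts (0.51, adjusted p = 0.0593). Rpl21 had knockouts at 12.29 to 12.49 and controls at 11.97 to 12.28, which did not overlap, with a change of 0.29 (adjusted p = 0.0824). Rpl29 changed by 0.25 (adjusted p = 0.196). Rpl30 was at 8.73, 8.43, 8.24 and 7.82 in controls and 8.42, 8.38, 8.20 and 8.51 in knockouts (0.07 ± 0.16 SE, adjusted p = 0.868), with the knockout values inside the control range.

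The stalk is the flexible arm of the large subunit that draws elongation factors to the ribosome, and its base protein Rplp0 had the lowest adjusted p of all 63 genes (0.000375). Rplp0 was at 11.05, 11.01, 11.39 and 10.96 in controls and 11.94, 12.03, 12.08 and 12.12 in knockouts, a change of 0.94 ± 0.11 (SE) or 1.91-fold. Rplp1 was at 12.25, 12.20, 12.53 and 12.25 in controls and 12.90, 12.90, 13.01 and 12.99 in knockouts (0.64 ± 0.09, adjusted p = 0.00111). In both genes control 3 was the highest control and the groups stood apart. Rplp2, the partner of Rplp1 in the stalk dimer, did not pass the test. It was at 8.68, 8.65, 9.06 and 8.77 in controls and 9.31, 9.20, 8.69 and 8.89 in knockouts (0.23 ± 0.14, adjusted p = 0.401), so that knockout 1 and knockout 2 lay above all controls while knockout 3 and knockout 4 lay among them.

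**Figure D3:**
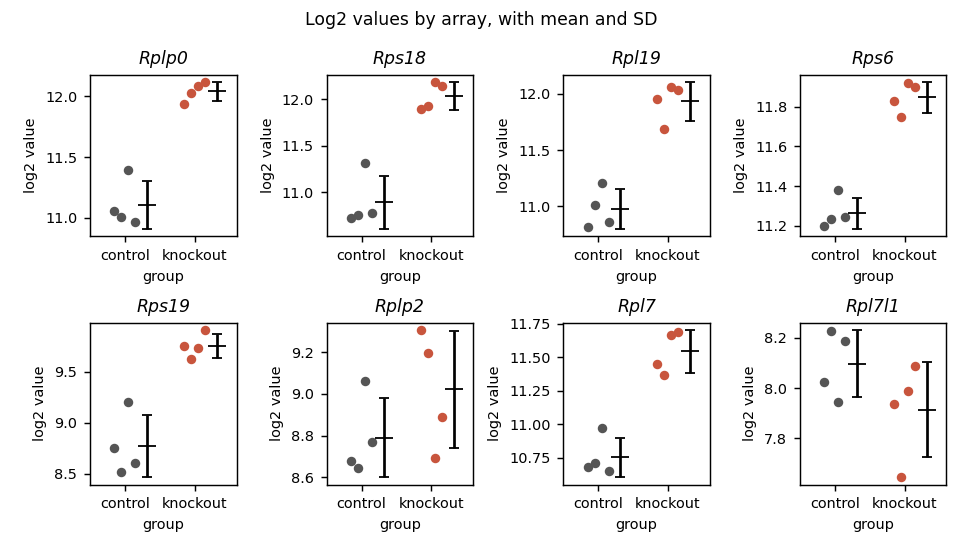
Log2 values of 8 genes in the 4 control (grey) and 4 knockout (red) arrays, replicates 1 to 4 from left to right in each group, with the group mean and SD beside them (black bars). The groups are apart for Rplp0, Rps18, Rpl19, Rps6, Rps19 and Rpl7, and overlap for Rplp2 and Rpl7l1; each panel has its own log2 axis, which does not start at 0.

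The paralogs, copies of ribosomal protein genes, are often restricted to a tissue. Of 7, 1 was higher and 0 lower (3 and 0 at an unadjusted p under 0.05), and the median change was 0.30. The shares of all genes were 5.38% higher and 4.17% lower, and 1 call among 7 genes cannot be told from them. The called paralog was Rps27l, a copy of Rps27 that p53 can induce, at 8.67, 8.64, 8.94 and 8.89 in controls and 9.38, 9.20, 9.89 and 9.84 in knockouts (0.79 ± 0.15 SE, adjusted p = 0.00546). Rpl7l1, which acts in ribosome assembly, was at 8.03, 8.23, 7.95 and 8.19 in controls and 7.93, 7.64, 7.99 and 8.09 in knockouts (-0.18 ± 0.11, adjusted p = 0.402). Rpl3l, known from heart and skeletal muscle, changed by -0.02, and Rpl39l and Rpl10l, known from testis, by 0.34 and 0.30 without passing the test. Their control means were low, at 4.66, 4.48 and 4.61, below the median of every array. Whether these genes were expressed at all was not tested, so their missing calls say little about paralogs. Rpl32l changed by 0.34 (adjusted p = 0.303). Rps4l, with 6.41 to 6.63 in controls and 6.69 to 6.82 in knockouts, changed by 0.27 (adjusted p = 0.0679), and its other probe set by -0.09. By its number, the probe set used lies among genes of another chromosome, and the other probe set among genes of the chromosome of Rps4l. The probe set used passed the threshold under cyclic loess, array weights, removal of dim genes or without control 2 (adjusted p = 0.0399 to 0.0487).

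The difference between a gene and its paralog was tested for the 3 pairs in which both were measured, by an exact two-sided permutation test over the arrays, for which 0.0286 is the smallest p that 4 against 4 arrays allow. Rpl7 stood 2.66 ± 0.26 (SD, n = 4) above Rpl7l1 in controls and 3.63 ± 0.09 in knockouts on the log2 scale, a shift of 0.97 (exact p = 0.0286, adjusted over the 3 pairs 0.0857). The shift was 0.22 for Rpl10 against Rpl10l (exact p = 0.286, adjusted 0.286) and 0.14 for Rps4x against Rps4l (exact p = 0.171, adjusted 0.257). Rpl10l was dim, with a control mean of 4.61. A single shift at the smallest possible p cannot pass 0.05 after adjustment over 3 pairs. The adjusted value of Rpl7 against Rpl7l1, whose differences did not overlap between the groups, thus depends on the number of arrays and on the other pairs. The test was added after the values of both genes were seen, so it gives no separate support. Levels of different probe sets are not on a common scale, so only the shift between the groups is read here. The 2 genes of neither subunit did not pass the test: Rps19bp1 was at 8.34 ± 0.08 in controls and 8.34 ± 0.15 in knockouts, and Rps23rg1 changed by -0.06.

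Control 3 held the highest control value for 46 of the 50 called genes and knockout 2 the lowest knockout value for 31 of them, with knockout 1 the lowest for 18. Knockout 3 was the highest knockout array for 27 and knockout 4 for 23. The mean log2 value over the 63 genes was 10.14, 10.18, 10.43 and 10.18 in the controls and 10.78, 10.76, 10.92 and 10.91 in the knockouts, so that the groups stood apart. The array-to-array SD of a gene had a median of 0.19 in controls and 0.12 in knockouts over the 63 genes, against 0.14 in both groups over all genes.

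Ribosomal protein genes have many processed copies in the genome, and the array carries probe sets for some of them under the parent gene's symbol. The 63 genes had 219 probe sets of their own, and 39 genes had more than 1. Fitted with all other single-gene probe sets, 204 of the 219 were higher and 0 lower, and 214 had a positive change. Some of them are not separate readings: in 5 genes, Rpl23a, Rpl27, Rpl41, Rps12 and Rps28, several probe sets held identical values on all 8 arrays. Counting identical values of a gene once left 207 probe sets, of which 192 were higher and 0 lower. These 207 need not be separate readings either, since probe sets of a gene may read the same RNA. Of the 39 genes, 38 had changes of one sign at every probe set, Rps4l being the exception. The 38 include Rpl41, whose 3 probe sets held the same values and so could not differ in sign. Rps6 rose at all 8 of its probe sets, by 0.44 to 0.63, Rps18 at all 7, by 1.10 to 1.22, and Rps12 at all 14, of which 8 had distinct values, by 0.50 to 0.94. Rpl21, whose brightest probe set missed the threshold, was higher at 7 of 9.

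Probe set numbers follow the order of the genome: for other single-gene probe sets with a clear place, 97.8% were numbered among probe sets of genes on their own chromosome. Among the 219, 63 were numbered among genes of their own chromosome, 152 among genes of another and 4 had no clear place. The probe set used was of the second kind for 30 of the 63 genes, Rps6, Rps18 and Rplp0 included. The median change was 0.71 at probe sets of the first kind (52 of 63 higher) and 0.72 at those of the second (148 of 152 higher, or 136 of 140 with identical values counted once). With the brightest probe set of the own chromosome in place of the brightest of all, an alternative added after the data were seen, 58 genes were measured, 47 were higher and 0 lower, with a median of 0.70. Which copy's RNA a probe set reads was not tested.

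**Figure D4:**
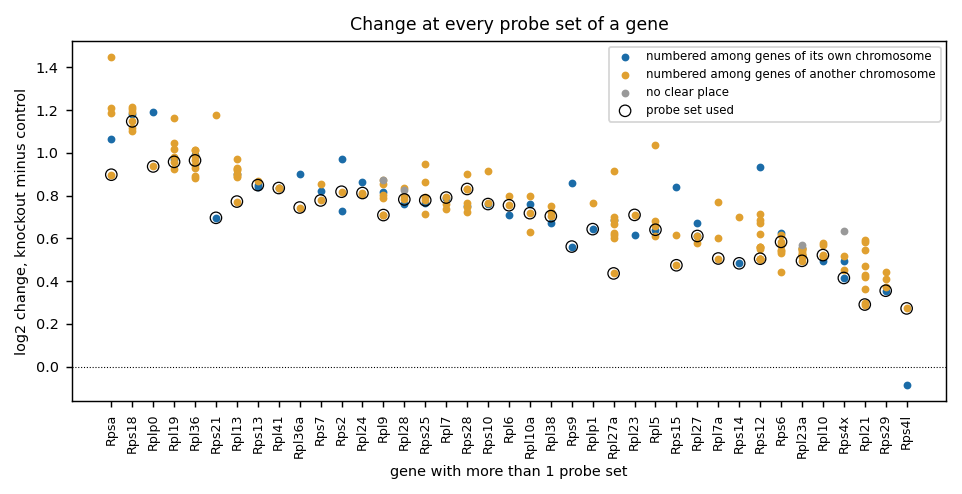
Log2 change (knockout minus control) at each probe set of the 39 genes with more than 1, coloured by whether its number falls among probe sets of genes on the gene's own chromosome (blue), another chromosome (orange) or neither clearly (grey), with a ring on the probe set used. Every point lies above 0 except 1 of Rps4l.

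Genes that work with the ribosome rose in part. Fau, a ribosomal protein of the small subunit made as a fusion to a ubiquitin-like domain and not covered by the symbol rule, was at 11.22, 11.14, 11.61 and 11.29 in controls and 12.01, 11.95, 12.10 and 11.97 in knockouts (0.69 ± 0.11 SE, adjusted p = 0.00161). It thus changed by about as much as the members' median, with control 3 again the highest control. Of 45 measured translation factors, 13 were higher and 1 lower with a median change of 0.20, beside 5.38% and 4.17% of all genes. Eef1b2, a subunit of the exchange factor that recharges elongation factor 1A, rose by 1.27 ± 0.14 (adjusted p = 0.00029), the initiation factor 3 subunits Eif3f and Eif3h by 1.01 and 0.82, and the translocase Eef2 by 0.66. Eef1b2 was at 9.50, 9.59, 10.05 and 9.67 in controls and 10.71, 10.91, 11.06 and 11.21 in knockouts, with the groups apart. The termination factor gene Gspt1 was lower by 0.47 and was not called without control 1, control 2, control 4, knockout 1, knockout 2 or knockout 3.

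Of 76 factors of ribosome assembly and the nucleolus, 8 were higher and 0 lower (20 and 2 at an unadjusted p under 0.05), with a median change of 0.13. Of all genes, 5.38% were called higher. With dim genes (mean under 6) left out, 10 of the 76 were higher, a share near the 10.3% of all genes called higher there. The 8 genes included the nucleolar GTPase Gnl3 (0.60 ± 0.11 SE, adjusted p = 0.00443), Nhp2 (0.77) and Nop10 (0.69), both parts of the complex that modifies uridines of ribosomal RNA, and the nucleolar chaperone Npm1 (0.60). The count was 5 without control 2 or knockout 4 and 4 without control 4 or knockout 3. In those settings 3.78% to 4.37% of all genes were called higher. The 77 proteins of the mitochondrial ribosome, which translates the few genes of the mitochondrial genome, had 12 higher and 0 lower (27 and 0 at an unadjusted p under 0.05) and a median of 0.15. Mrpl52 (0.94 ± 0.14, adjusted p = 0.00126), Mrpl23 (0.80), Mrpl54 (0.75) and Mrpl30 (0.64) were among them. Their count was 7 without control 1 or control 4 and 6 without knockout 3 or knockout 4. In those settings 3.78% to 4.04% of all genes were called higher. With all 8 arrays the share called was thus 50 of 63 for cytosolic and 12 of 77 for mitochondrial ribosomal proteins, against 5.38% of all genes. With dim genes left out, it was 52 of 59 and 14 of 75, against 10.3%.

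**Figure D5:**
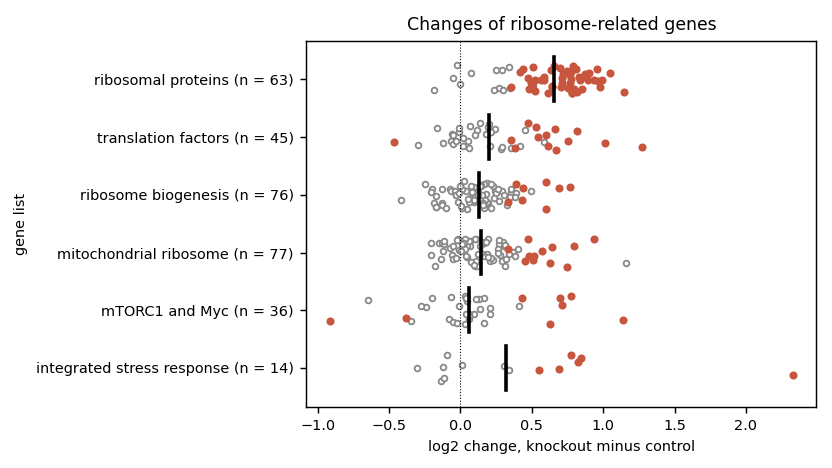
Log2 change (knockout minus control) of each measured gene in 6 lists, filled where the adjusted p is under 0.05 and open otherwise, with a black bar at each list's median. The cytosolic ribosomal proteins sit furthest to the right as a group, with a median of 0.66, and the translation factors, assembly factors and mitochondrial ribosomal proteins have medians of 0.20, 0.13 and 0.15.

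Of 36 measured genes of the mTORC1 and Myc list, which control ribosome production, 6 were higher and 2 lower (7 and 6 at an unadjusted p under 0.05), with a median of 0.06. The 2 lower genes are a share near the 4.17% of all genes called lower. The 6 higher genes stand beside 5.38% of all genes called higher. With dim genes left out, 5 of 34 were higher, beside 10.3% of all genes. Rragd, a GTPase that brings mTORC1 to the lysosome, rose by 1.14 ± 0.20 (SE, adjusted p = 0.00339), Eif4ebp1, the translation repressor that mTORC1 switches off, by 0.71, and Sesn2, a leucine sensor that restrains mTORC1, by 0.78, while its relative Sesn1 fell by 0.92. Myc itself, a transcription factor of growth genes named after its value was seen, was at 8.27, 8.77, 8.81 and 8.86 in controls and 9.04, 9.20, 9.48 and 9.49 in knockouts (0.63 ± 0.14, adjusted p = 0.0162). The other lower gene, Pdcd4, which was also named after its value was seen, changed by -0.38, and the count of lower genes was 1 without control 1, control 4, knockout 1 or knockout 3 and 1 without control 3 and knockout 2. Mtor, the kinase itself, changed by 0.05 (adjusted p = 0.854).

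The integrated stress response, in which phosphorylated initiation factor 2 lowers general translation and favours Atf4, had 6 of 14 genes higher and 0 lower (8 and 1 at an unadjusted p under 0.05), with a median of 0.32. Of all genes, 5.38% were called higher. Asns, which makes asparagine, was at 5.11, 5.05, 6.09 and 4.94 in controls and 7.51, 7.53, 7.80 and 7.68 in knockouts, a change of 2.33 ± 0.21 (SE, adjusted p = 0.000169). Control 3 stood above the other controls and below every knockout array. Atf5 (0.84), Chac1 (0.83) and Sesn2, shared with the previous list, rose as well, and Atf4 changed by 0.01 (adjusted p = 0.968).

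Markers of other cells that the sort could hold were read on the same arrays. Beside the counts below, 5.38% of all genes were called higher and 4.17% lower. At an unadjusted p under 0.05, 2063 of 19938 genes were higher and 2133 lower. A single call in so short a list cannot be told from these shares. The mean log2 value of the listed border macrophage markers was 6.26 to 6.85 in controls and 5.63 to 6.37 in knockouts, with 4 of 8 genes lower and 1 higher. Monocyte and neutrophil markers had 1 of 9 lower and means of 7.68 to 9.92 in controls and 8.53 to 9.39 in knockouts, B cell markers 0 of 5 called and T and NK cell markers 0 of 8 (by limma, 1 of 5 and 3 of 8 at an unadjusted p under 0.05). Control 1 alone held the low monocyte and neutrophil mean of 7.68, with the other controls at 9.27 to 9.92. Among these markers S100a9, named after its value was seen, was at 10.00 in control 1, 12.01 to 12.52 in the other controls and 11.23 to 11.95 in knockouts. B cell marker means were 5.48 to 5.89 and 5.47 to 5.95, and T and NK cell marker means 5.25 to 5.80 and 5.41 to 6.02. Astrocyte markers had 1 of 6 higher (means 5.94 to 6.12 and 6.07 to 6.37), oligodendrocyte markers 1 of 5 higher (6.47 to 6.62 and 6.58 to 6.67), endothelial markers 1 of 5 higher and 1 lower (5.58 to 5.82 and 5.63 to 5.96), and neuronal markers 0 of 7 called (5.31 to 5.45 and 5.36 to 5.53; 1 at an unadjusted p under 0.05). Their part in the rise of the ribosomal protein genes was not tested.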

How the data were processed

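The values the authors deposited are RMA summaries of each probe set (per the submitters' processing notes), a method that corrects background, equalises the arrays' distributions and combines probes. The deposited values were read as log2 from their range, since no label states the base, and the sources used here do not give the version of RMA. Of 28874 probe sets, 21789 had 1 gene symbol in the platform annotation, 1621 several and 5464 none, and only the first kind was used. Knockout was compared with control in limma 3.58.1 (R 4.3.3; lmFit and eBayes, two-sided, no covariate, no filter), with Benjamini-Hochberg adjustment over 19938 genes and a threshold of 0.05. Errors of changes are limma standard errors, and means are given ± SD. Only the size and direction of estimated changes were checked on simulated data with planted changes. The simulated noise was drawn separately for each gene and so lacks shifts shared by many genes.

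The members and lists were chosen with earlier results of these data known. Named were the 20 members with the lowest adjusted p, textbook members, measured paralog pairs, Fau, and up to 4 called genes per list; Rpl14, Rpl26, Rpl34, the uncalled members, Cx3cr1, Atf4, Mtor, Mdm2, Gspt1 and the genes so marked were named after their values were seen, and the paralog test was added then. Alternatives were quantile normalization, median centring, cyclic loess, a filter on dim genes (mean under 6), the mean of probe sets, a trend with robust prior, weighted arrays, a block for the replicate number, arrays left out, and an adjusted p under 0.01. The precision is limited by 4 arrays per group. Replicate numbers were not used as pairs in the main comparison. Deviations of same-numbered arrays correlated at -0.06 to 0.16, which with 4 arrays per group cannot exclude that samples were handled in pairs. The place of a probe set was read from the 5 nearest named probe sets on each side, of which a share of at least 0.8 had to lie on 1 chromosome. Figures were drawn with matplotlib 3.10.9.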

Additional observations from a re-analysis of the deposited data

Results flagged for a closer look

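In 14 of 106 groups of 4 values examined, 1 array stood far from the other 3. Chance flags about 1 in 20, but many of these groups moved together across the arrays, so the 14 flags are not separate events. Control 3 was the far array in 9 of them. It was the highest control for Rpl36a (11.42), Rpl6 (11.34), Rplp1 (12.53), Rps18 (11.32), Rps20 (11.89), Rps7 (11.10), the mean over the members (10.43) and Asns (6.09), and it was the lowest for Sesn1 (9.81). In each case it lay on the side of the knockout arrays, and none of its values reached them. Without control 3, 50 members were higher and 0 lower, with a median change of 0.75 against 0.66.

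Control 1 was the lowest control for Xist (6.80) and the highest for Eif2s3y (8.14). Control 2 was the highest control for Rps4l (6.63). Knockout 4 was the highest knockout for Chac1 (7.63), and knockout 1 the lowest for Mrpl30 (9.12).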

How the results depend on the processing

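The count of higher ribosomal protein genes was 45 to 53 and that of lower ones 0 under every alternative run, and 46 of the 50 called genes kept the call under all 17 listed alternatives with the 0.05 threshold (Rps4x, Rps29, Rpl27a and Rpl34 did not). The median change ranged from 0.58 after quantile normalization to 0.79 without control 1, control 3 and knockout 2. The latter setting was added after the data were seen, and 2 of its arrays were picked by the members' values. With each array left out in turn, the members higher were 48 to 51, lower 0 to 0, and the median 0.63 to 0.75. The replicate block gave 50 higher and 0 lower members; correlations of same-numbered deviations were -0.06 to 0.16, and 1 of 4 controls correlated best with its own number.

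Counts of the other lists changed as follows, and the cause was not tested. With arrays left out, the translation factors were 11 to 17 higher and 0 to 1 lower, assembly factors 4 to 9 and 0 to 0, mitochondrial ribosomal proteins 6 to 16 and 0 to 0, the mTORC1 and Myc list 5 to 7 and 1 to 3, the stress response 5 to 7 and 0 to 1, and the Mdm2 and p53 list 0 to 0 and 1 to 1. The calls over all genes moved too. The share called higher was 3.78% without knockout 3, 5.83% without knockout 1 and 6.31% under cyclic loess. Genes called lower were 507 without knockout 3 and 960 without control 3. Quantile normalization gave 1 lower stress response gene and 2 lower translation factors, cyclic loess 20 higher translation factors, and the replicate block 5 higher and 1 lower assembly factors. Without control 3 and knockout 2, 1 mTORC1 and Myc gene was lower. At an adjusted p under 0.01, 4 mitochondrial and 3 assembly genes were higher, and 1 mTORC1 and Myc gene and 0 translation factors were lower. Of 848 values of named genes, 843 kept direction and side of the threshold and 0 reversed.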

Other observations

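Of 11 measured cell cycle genes, 0 were called (limma; 3 higher and 0 lower at an unadjusted p under 0.05), and all 11 changes were positive with a median of 0.32. Their mean log2 value was 6.44 to 6.66 in controls and 6.53 to 7.26 in knockouts. Of 7 measured genes of the Mdm2 and p53 list, which responds to free ribosomal proteins, 0 were higher and 1 was lower, Sesn1, which is also on the mTORC1 list (1 and 1 at an unadjusted p under 0.05), and Mdm2 changed by -0.22 (adjusted p = 0.245). Over all 19938 genes, 2063 were higher and 2133 lower at an unadjusted p under 0.05.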
